A study of Mus musculus with 4 samples.

Results

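The SOCS family comprises Cish, which encodes the protein CIS, and Socs1 to Socs7, cytokine feedback genes whose products damp the signalling of the cytokines that induce several of them. The 8 genes were chosen by symbol, and all 8 were found among the 25239 symbols of each count table and passed the minimum mean of 10 reads. RNA-seq read counts were available for 4 libraries of B16 melanoma, a mouse line that forms tumors when injected subcutaneously, here at each flank of B6 mice. All 4 groups had received CTX by the abdominal route, the day before the cell transfer that the labels call ACT. Treatments began at day 7, and the harvest was 12 days after ACT. The CTX library came from mice with no transferred T cells and no virus, whose left tumors had been injected with PBS. The MV left tumor library came from left tumors injected with free MV, in mice that had also been given TRP-1 T cells by vein. The remote tumor library came from the right tumors of that group, which had no injection. For TRP-1 T-MV the cells given by vein were TRP-1 T cells carrying MV. The table headers write MV as MYXV, the usual abbreviation of myxoma virus, and TRP-1 is the pigment enzyme encoded by Tyrp1. The labels do not say which flank the CTX and TRP-1 T-MV tumors came from, or whether mice were pooled (they state n = 2, with 1 table per group). They name the source a melanoma cell line in one field and tumor tissue in the extraction protocol.

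Cytokine receptors of the JAK-STAT type activate Janus kinases, which phosphorylate STAT transcription factors, and the STATs switch on Socs genes. Each SOCS protein has an SH2 domain that binds phosphorylated receptors or kinases and a SOCS box that recruits elongins B and C and a cullin ubiquitin ligase. CIS and SOCS1 to SOCS3 are the members best known as cytokine-induced inhibitors, in T cells and macrophages among others, whereas SOCS4 to SOCS7 are less studied and are linked also to growth factor receptors.

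Each group had 1 library, so no test between groups was possible, and brackets give 95% intervals that cover counting error only, not differences between mice or preparations. Levels are given as CPM, the read count divided by library size and set to a common total, scaled with TMM factors, which put libraries on a common scale under the assumption that most genes do not differ. Calls, higher or lower, required a ratio of 2 or more in that direction together with an interval that left out 1. Total counts ran from 12375526 in the MV left tumor to 21790759 in the remote tumor. The ribosomal and other transcripts Rn45s, Lars2, Rpph1 and Rmrp held 1.64% of the total in the MV left tumor and 1.62% in TRP-1 T-MV, against 0.141% in CTX and 0.164% in the remote tumor. Whether this difference between libraries touches the values below was not tested, beyond a rescaling without these 4 transcripts that left every member's call in place.

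Of the 8 family genes, 5 were called higher and none lower in the MV left tumor against CTX, where 18.1% of the 13357 genes compared were called higher and 11.1% lower. The 5 were Cish, Socs1, Socs2, Socs3 and Socs7. The same 5 were called higher and none lower in TRP-1 T-MV against CTX, where 18.5% of all genes were called higher and 11.7% lower. The median log2 ratio of the 8 genes was 1.58 in the MV left tumor and 1.62 in TRP-1 T-MV, beside −0.05 and −0.07 over all genes compared. Both comparisons use the same CTX library. In the remote tumor no member was called in either direction, with background shares of 0.457% higher and 0.247% lower and a median of −0.13 over the members. The 8 genes together stood at 163 CPM in CTX, 152 in the remote tumor, 385 in the MV left tumor and 425 in TRP-1 T-MV.

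**Figure D1:**
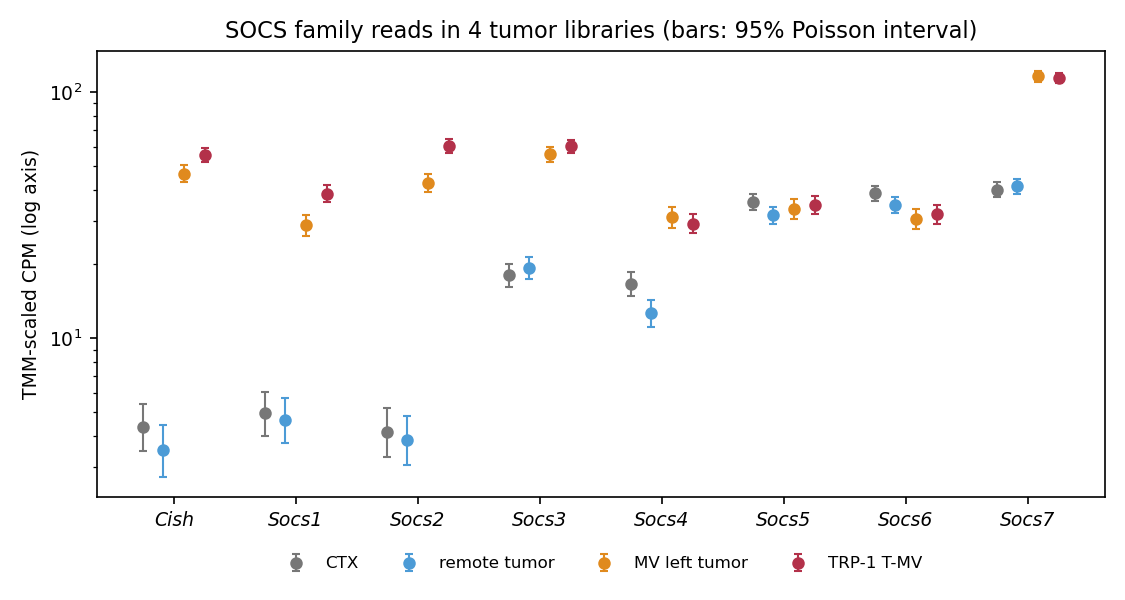
TMM-scaled CPM (log axis) of each family gene in the 4 libraries, with 95% Poisson intervals as bars and 1 point per library. Cish, Socs1 and Socs2 lie at 3.52 to 4.95 in CTX and the remote tumor and at 28.8 to 60.3 in the MV left tumor and TRP-1 T-MV, while Socs5 and Socs6 lie between 30.6 and 38.7 in all 4.

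Cish encodes CIS, which restrains STAT5 signalling and T cell receptor signalling (chromosome 9, 107296026 to 107302784, plus strand, positions throughout on mm10). It had 84 reads in CTX and 70 in the remote tumor, against 630 in the MV left tumor and 894 in TRP-1 T-MV. In CPM these were 4.38, 3.52, 46.6 and 55.5. The MV left tumor and TRP-1 T-MV, called the virus-treated libraries below although the remote tumor's mice also received MV, therefore lay far above the other pair. The ratio to CTX was 10.6 [8.46, 13.5] in the MV left tumor and 12.7 [10.1, 16.0] in TRP-1 T-MV. In the MV left tumor 93.6% of all genes had a lower ratio to CTX than Cish. The pseudogene Gm17040 and the antisense gene Gm17041, both on the opposite strand, overlap exons of Cish in the GENCODE M21 annotation and are not among the symbols of the tables. The strand setting of the counting is not given in the sources used here, so reads from them could have been counted as Cish.

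Socs2 encodes the inhibitor that limits growth hormone signalling and is also induced through STAT5 (chromosome 10, 95385362 to 95417180, minus strand). Its CPM was 4.17 in CTX, 3.87 in the remote tumor, 42.7 in the MV left tumor and 60.3 in TRP-1 T-MV, from 80, 77, 577 and 971 reads. The order of the 4 libraries was thus close to that of Cish, with CTX and the remote tumor low and TRP-1 T-MV highest. The ratio to CTX was 10.2 [8.09, 13.1] in the MV left tumor and 14.5 [11.5, 18.4] in TRP-1 T-MV, the highest ratio of any family member in either comparison.

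Socs1 encodes the direct inhibitor of Janus kinases that restrains interferon gamma and interleukin-2 signalling (chromosome 16, 10782240 to 10785536, minus strand). It had 95 reads in CTX, 93 in the remote tumor, 389 in the MV left tumor and 623 in TRP-1 T-MV, or 4.95, 4.67, 28.8 and 38.7 CPM. Again the first pair was low and the second high. The ratio to CTX was 5.81 [4.63, 7.35] in the MV left tumor and 7.81 [6.28, 9.80] in TRP-1 T-MV.

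Socs3 encodes the inhibitor that binds gp130 and the G-CSF and leptin receptors and limits STAT3 signalling (chromosome 11, 117966079 to 117970047, minus strand). Its CPM was 18.0 in CTX, 19.3 in the remote tumor, 55.9 in the MV left tumor and 60.2 in TRP-1 T-MV, from 346, 384, 755 and 969 reads. The low and high pairs were again apart, with ratios smaller than those of Cish, Socs1 and Socs2. The ratio to CTX was 3.10 [2.72, 3.53] in the MV left tumor and 3.33 [2.95, 3.78] in TRP-1 T-MV.

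The promoters of Cish, Socs1 and Socs3 were read because these 3 genes were higher together, and RefSeq entries on GRCm38.p6 were at hand for 4 of the 8 members, Socs4 being the other. Each entry runs from 250 bases before to 50 after the RefSeq start. Both strands were searched for TTCNNNGAA, the form of site bound by most STATs, for TTCNNNNGAA, the wider spacing that STAT6 also binds, and for GAAANNGAAA, a core of interferon-stimulated response elements. TTCNNNGAA was in 8.30% of the 32851 entries of the same length, TTCNNNNGAA in 6.95% and GAAANNGAAA in 3.44%. Capitals below mark the matches, and all 3 sequences read 5′ to 3′ in the direction of transcription.
Cish: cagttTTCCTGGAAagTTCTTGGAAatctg
Socs1: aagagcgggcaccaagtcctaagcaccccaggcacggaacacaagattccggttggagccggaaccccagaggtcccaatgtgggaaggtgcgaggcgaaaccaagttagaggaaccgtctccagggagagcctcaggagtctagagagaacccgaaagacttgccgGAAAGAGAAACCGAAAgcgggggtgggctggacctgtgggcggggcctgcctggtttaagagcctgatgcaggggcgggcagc
Socs3: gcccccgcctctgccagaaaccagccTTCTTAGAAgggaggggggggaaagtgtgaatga

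The Cish stretch of 30 bases lies at chr9:107296654-107296683, plus strand, and holds TTCNNNGAA as TTCCTGGAA at bases 1 to 9 and as TTCTTGGAA at bases 12 to 20 counted from the RefSeq start. Of all entries, 0.457% held at least 2 matches of TTCNNNGAA. In GENCODE M21 the principal Cish transcript starts 633 bases earlier, so the stretch then lies downstream of the start and not before it. The Socs1 stretch is the 250 bases before a start that RefSeq and GENCODE share (chr16:10785537-10785786, minus strand). It holds GAAANNGAAA as GAAAGAGAAA at −83 to −74 and as GAAACCGAAA at −77 to −68, a pair that overlaps, and 0.225% of all entries held at least 2 matches of that motif. The Socs3 stretch of 60 bases (chr11:117969487-117969546, minus strand) holds TTCTTAGAA at −154 to −146 from the RefSeq start, and the main GENCODE transcript starts 180 bases further downstream. The Socs4 entry held none of the 3 motifs, and TTCNNNNGAA was in none of the 4. A match describes letters only. No binding was measured here.

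Socs7, whose product binds signalling adaptors and has been linked to insulin signalling (chromosome 11, 97362551 to 97398542, plus strand), was the only one of Socs4 to Socs7 to be called against CTX. It had 769 reads in CTX, 825 in the remote tumor, 1566 in the MV left tumor and 1839 in TRP-1 T-MV. In CPM these were 40.1, 41.4, 116 and 114, again with CTX and the remote tumor low and the other pair high. The ratio to CTX was 2.89 [2.65, 3.15] in the MV left tumor and 2.85 [2.62, 3.10] in TRP-1 T-MV. Unlike Socs1 and Socs2, Socs7 stood no higher in TRP-1 T-MV than in the MV left tumor.

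Socs4 (chromosome 14, 47276931 to 47296102, plus strand) and Socs5 (chromosome 17, 87107679 to 87137839, plus strand) encode a related pair of proteins tied to degradation of the EGF receptor. Socs4 had 16.7 CPM in CTX, 12.7 in the remote tumor, 31.0 in the MV left tumor and 29.2 in TRP-1 T-MV. Its ratios to CTX of 1.86 [1.60, 2.16] and 1.75 [1.52, 2.03] excluded 1 but lay under 2, so it was not called. It was called when libraries were scaled on total counts or on housekeeping genes. Socs5 stood at 35.8, 31.6, 33.6 and 34.9 CPM in the same order, with ratios of 0.939 [0.832, 1.06] and 0.975 [0.871, 1.09], so no difference was detectable at this depth.

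Socs6 encodes a protein that binds the insulin receptor and the receptor tyrosine kinase KIT (chromosome 18, 88665224 to 88927481, minus strand). It had 38.7 CPM in CTX, 34.7 in the remote tumor, 30.6 in the MV left tumor and 31.9 in TRP-1 T-MV. It was the only member whose interval lay below 1 in both virus-treated libraries, at 0.789 [0.698, 0.891] and 0.824 [0.735, 0.923] of its CTX level, well short of the calling rule. The sign of Socs5 and Socs6 depended on the scaling. On housekeeping genes, which added 0.90 to every log2 ratio of the MV left tumor to CTX and 0.86 to those of TRP-1 T-MV, both were above 0. With total counts Socs5 stood at 0.15 and 0.20, and Socs6 at −0.10 and −0.04 with intervals that then included 0. For TRP-1 T-MV the ratio of Socs5 was also above 0 with DESeq2 size factors, at 0.01, and with upper-quartile factors, at 0.04.

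**Figure D2:**
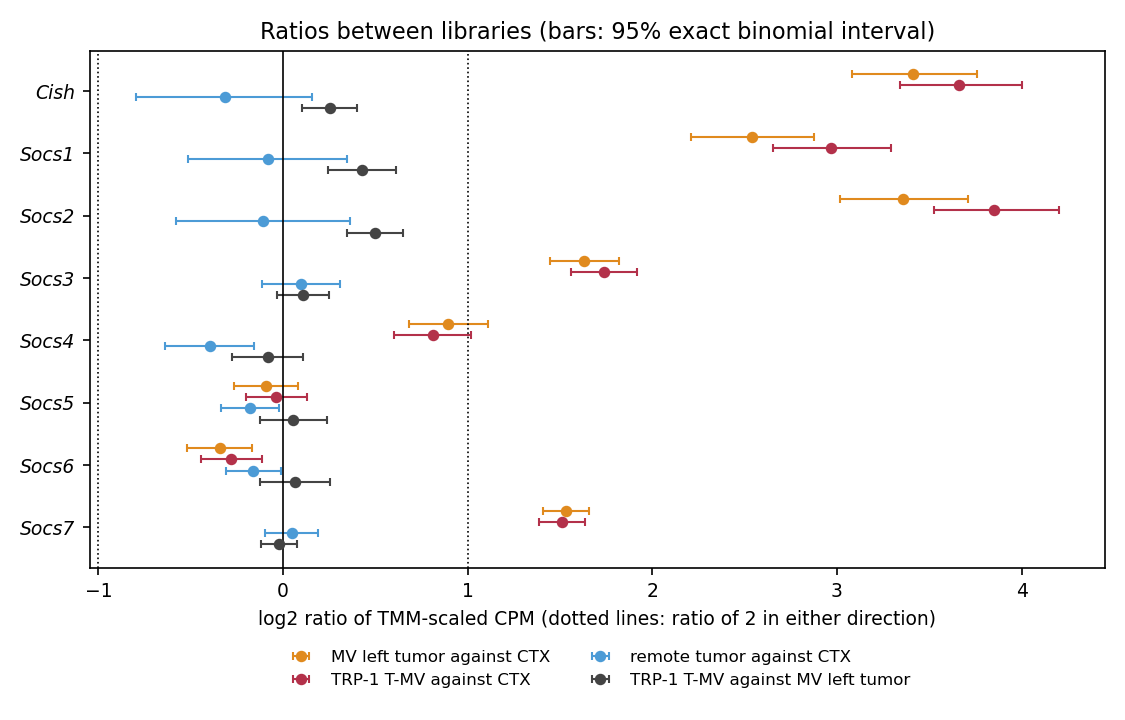
Log2 ratio of TMM-scaled CPM on the horizontal axis for each family gene in 4 comparisons, with 95% exact binomial intervals as bars and dotted lines at a ratio of 2 in either direction. Cish, Socs1, Socs2, Socs3 and Socs7 lie right of the upper dotted line against CTX in both virus-treated libraries, Socs4 lies just left of it, and all remote tumor points lie between −0.40 and 0.10.

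The make-up of the family's reads shifted along with the levels. Cish, Socs1, Socs2 and Socs3 together gave 19.4% [18.0, 20.8] of the family's reads in CTX and 20.7% [19.2, 22.2] in the remote tumor. They gave 45.2% [43.8, 46.5] in the MV left tumor and 50.5% [49.3, 51.7] in TRP-1 T-MV (exact binomial intervals). These 4 are the classical cytokine-induced members, but they were grouped with their values known. In summed CPM they went from 31.5 in CTX to 174 and 215, while Socs4 to Socs7 together went from 131 to 211 and 210. In that second set Socs7 went from 40.1 to 116 and 114 CPM and Socs4 from 16.7 to 31.0 and 29.2, while Socs5 and Socs6 stayed between 30.6 and 38.7.

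**Figure D3:**
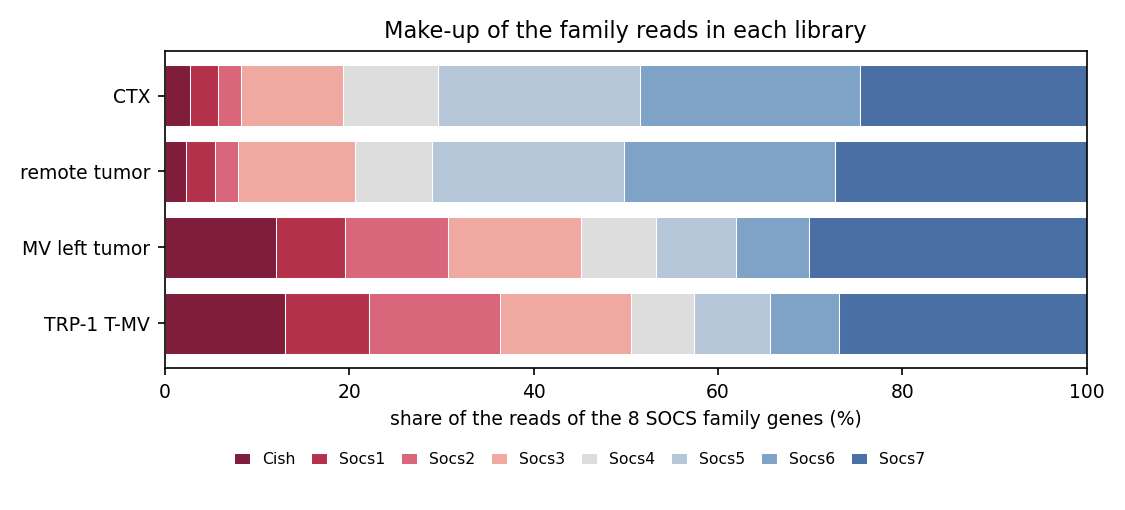
Share of the reads of the 8 family genes (horizontal axis, percent) that each gene held in each of the 4 libraries. The red blocks, Cish and Socs1 to Socs3, make up 19.4% and 20.7% in CTX and the remote tumor and 45.2% and 50.5% in the MV left tumor and TRP-1 T-MV, and Socs5 and Socs6 shrink in share while their CPM changes little.

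Levels can be compared between genes only per length, here as CPM per kilobase of the longest principal transcript in GENCODE M21. In CTX, Socs5 at 7.70, Socs3 at 7.07, Socs6 at 6.42 and Socs7 at 5.72 led, followed by Socs4 at 2.43. The last places went to Socs2 at 1.88, Socs1 at 1.70 and Cish at 1.54, which rest on 80 to 95 reads each. In TRP-1 T-MV the order began with Socs2 at 27.1 and Socs3 at 23.6, followed by Cish at 19.5, Socs7 at 16.3 and Socs1 at 13.3, and ended with Socs5 at 7.51, Socs6 at 5.29 and Socs4 at 4.25. By this length Cish, Socs1 and Socs2 had the 3 lowest levels in CTX and were among the upper 5 in TRP-1 T-MV. Counting all annotated exons in place of 1 transcript moved Socs3 to first in TRP-1 T-MV at 20.8 and Socs2 to place 5 at 6.33, because its annotated exons span 9531 bases against 2222 in the principal transcript. In the MV left tumor Socs2 stood second at 19.2 by the principal transcript, but in place 7 at 4.48 with all annotated exons. Which of these exons the counting used is not given in the sources used here.

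The 2 virus-treated libraries were set against each other to ask how T cells carrying MV differed from free MV with T cells. No member was called in either direction, beside 0.562% of all genes called higher and 0.217% lower in TRP-1 T-MV. Even so, 3 members had intervals that excluded 1. Socs2 was 1.41-fold [1.27, 1.57], Socs1 1.34-fold [1.18, 1.53] and Cish 1.19-fold [1.07, 1.32] higher in TRP-1 T-MV. Socs3 at 1.08 [0.978, 1.19], Socs4 at 0.943 [0.825, 1.08], Socs5 at 1.04 [0.916, 1.18], Socs6 at 1.04 [0.916, 1.19] and Socs7 at 0.985 [0.921, 1.05] did not differ beyond counting error. Summed macrophage and monocyte markers stood at 942 CPM in the MV left tumor and 1387 in TRP-1 T-MV, with none of 10 called and a median log2 ratio of 0.52. Neutrophil markers summed to 157 and 251 CPM, with 1 of 4 called higher (S100a9, at 1.20), and dendritic cell markers to 154 and 218, with none of 4 called. Ccr7 gave most of the dendritic cell sums. The T cell markers stood at 202 and 203 CPM. The part of these cells in the differences was not tested.

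The remote tumor was compared with CTX to ask whether the uninjected flank differed from tumors with no virus, and with the MV left tumor as the other flank of the same treatment group. Against CTX the members' ratios ran from 0.759 [0.641, 0.898] for Socs4 to 1.07 [0.922, 1.24] for Socs3. The intervals of Socs4, Socs5 at 0.883 [0.792, 0.986] and Socs6 at 0.895 [0.806, 0.994] lay below 1, with the last 2 near it. For Cish the ratio was 0.803 [0.576, 1.12], so at 70 and 84 reads a fall to 0.576 or a rise to 1.12 of the CTX level was within counting error. Against the remote tumor, 6 members were called higher in the MV left tumor and none lower, beside 18.6% of all genes higher and 11.7% lower. The sixth was Socs4, at 2.45 [2.09, 2.87]. Cish stood at 13.3 [10.3, 17.2], Socs2 at 11.0 [8.69, 14.2] and Socs1 at 6.16 [4.90, 7.81], followed by Socs3 at 2.90 and Socs7 at 2.80. The MV left tumor library is shared with the comparison against CTX.

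The genes upstream of the family were described from lists of ligands, receptors, kinases and transcription factors. Of 21 cytokines that signal through JAK-STAT, 12 passed the minimum count and 11 were called higher in both virus-treated libraries against CTX. Over all genes, 18.1% and 18.5% were called higher there. Most of the 12 had at most 5 reads in CTX and passed the minimum mean only through the virus-treated libraries. For these a higher call was nearly fixed in advance. The median log2 ratio of the 12 was 4.83 in the MV left tumor and 5.14 in TRP-1 T-MV, with Il12a and Il21 entered at bounds because they had 0 reads in CTX. Ifng, the interferon gamma gene and an inducer of Socs1, had 2 reads in CTX, 3 in the remote tumor, 531 in the MV left tumor and 625 in TRP-1 T-MV. Il10, an inducer of Socs3, had a log2 ratio of 7.47 [4.97, 12.79] in the MV left tumor on 125 reads against 1. At the other end of that list stood Il15, not called at 0.34 and 0.94, and Il11, called at 3.67 and 3.57 on 27 and 30 reads against 3. Il6, which signals through gp130 and induces Socs3, had 2 reads in CTX, 1 in the remote tumor, 115 in the MV left tumor and 218 in TRP-1 T-MV. Il2, the cytokine that induces Cish in T cells, had 5 reads in each virus-treated library and 0 in the others, and Ifnb1 and Il4 had 0 reads in all 4.

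Of 24 receptor genes past the minimum count, 14 were called higher in each virus-treated library against CTX, with 1 lower in the MV left tumor and none in TRP-1 T-MV. Over all genes, 18.1% and 18.5% were called higher and 11.1% and 11.7% lower. The median log2 ratio of the receptor genes was 2.83 and 3.03. Il2ra, the alpha chain of the interleukin-2 receptor, led at 9.15 and 9.16, followed by Il21r at 7.39 and 7.69. Il21r had 6 reads in CTX and 10 in the remote tumor, Il7r 12 and 7, and Lepr 1 and 4. These genes, all called higher in both libraries, passed the minimum mean only through the virus-treated libraries. The ubiquitously expressed Il10rb was lowest, at −1.06 and −0.86, and next stood Ifnar1 at −0.51 in the MV left tumor and Epor at −0.55 in TRP-1 T-MV. Il6st, encoding the gp130 chain that SOCS3 binds, stood at 0.45 and 0.38 and was not called. Ghr, encoding the growth hormone receptor that SOCS2 limits, stood at 0.22 and 0.43 and was not called either. Of 5 measured growth factor receptors that SOCS proteins bind, 2 were called higher in each library, Csf1r at 4.41 and 5.09 and Flt3 at 3.78 and 3.25, both also myeloid markers. Flt3 likewise passed the minimum mean through the virus-treated libraries, with 3 reads in CTX and 4 in the remote tumor. Insr, encoding the insulin receptor, was lowest at 0.23 and 0.34, and Kit stood at 0.31 and 0.93.

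Among the 4 JAK and 7 STAT genes, 3 were called higher in the MV left tumor and 4 in TRP-1 T-MV, where the shares over all genes were 18.1% and 18.5%. Stat4, which transmits interleukin-12 signals in lymphocytes, had 5 reads in CTX against 418 and 602, at log2 ratios of 6.89 and 7.16. With 9 reads in the remote tumor, Stat4 passed the minimum mean only through the virus-treated libraries, so its higher call was nearly fixed in advance. Jak3, the kinase of the common gamma chain, stood at 2.22 and 2.37, and Jak2 at 1.76 and 2.09. Stat2 passed only in TRP-1 T-MV, at 1.26 against 0.97, and that difference was not called, at 0.29. Other STATs that drive the classical members differed less. Stat3 stood at 0.78 and 0.86, Stat5a at 0.28 and 0.32, Stat5b at 0.74 and 0.62, and Stat6 at −0.24 and −0.13, none of them called. Messenger levels do not show how much STAT protein was phosphorylated.

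STAT target genes are described for 2 lists of 8 genes each. All 8 STAT3 targets were called higher in both libraries, with a median log2 ratio of 3.28 and 3.44. Over all genes, 18.1% and 18.5% were called higher in these libraries and 11.1% and 11.7% lower. Lcn2, encoding the siderophore-binding lipocalin, stood highest at 8.62 and 9.24, then Saa3 at 6.17 and 6.80, with Cebpd at 1.41 and 1.53 and Fos at 2.00 and 2.07 lowest. Of the STAT5 targets 5 were called higher and 1 lower, with a median of 2.32 and 2.43. Il2ra and Osm led, the latter at 5.56 and 5.64, and the cyclin genes Ccnd3, called lower at −1.07 and −1.06, and Ccnd2, at −0.60 and −0.57, were lowest. Some genes stand on more than 1 list, and Il2ra, Osm and Il4ra are also counted above. Osm had 5 reads in CTX and 5 in the remote tumor, so it passed the minimum mean only through the virus-treated libraries.

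Other brakes on the pathway, phosphatases, PIAS proteins and adaptors, were listed separately. Of these 13 genes 2 were called higher in the MV left tumor and 5 in TRP-1 T-MV, and none lower, with medians of 0.51 and 0.46. The count in the MV left tumor is near the share of all genes called higher there, 18.1%, and the share in TRP-1 T-MV was 18.5%. The smallest of the 5 called ratios in TRP-1 T-MV lay at the limit, at a log2 of 1.00. Between the 2 virus-treated libraries none of the 13 was called. Ptprc, encoding the leukocyte phosphatase CD45, stood at 5.40 and 5.46, and Ptpn6, encoding SHP-1, at 1.11 and 1.23. Sh2b3 was lowest at −0.34 and −0.14, and Pias2 was next at −0.01 and −0.07.

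The ubiquitin ligase genes that work with the SOCS box showed no call. None of the 7 was called in either library, and the median log2 ratio was −0.41 and −0.48, from the cullin gene Cul5 at 0.04 and −0.06 down to Elob, encoding elongin B, at −0.70 and −0.80 and Rnf7 at −0.89 and −0.74. Ube2f, encoding a NEDD8-conjugating enzyme, was next to Cul5 at −0.13 and −0.16. Of 16 other SOCS box genes past the minimum count, 3 were called higher and 3 lower in each library, with medians of 0.12 and 0.00. These counts are near the shares over all genes, 18.1% and 18.5% higher and 11.1% and 11.7% lower. The higher ones were Asb4, on 14 and 26 reads against 1, with Spsb2 at 1.48 and 1.25 and Rab40c at 1.15 and 1.10. Asb4, with 3 reads in the remote tumor, passed the minimum mean only through the virus-treated libraries, so its higher call was nearly fixed in advance. Asb10 at −2.00 and −2.42, Spsb4 at −1.75 and −1.77 and Wsb2 at −1.03 and −1.10 were the lower ones. In the remote tumor against CTX, 1 cytokine gene, Il12b at 2.17, and 1 receptor gene, Csf3r at 1.13, were called, and no gene of the other pathway lists described here was. Over all genes, 0.457% were called higher in that comparison and 0.247% lower.

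**Figure D4:**
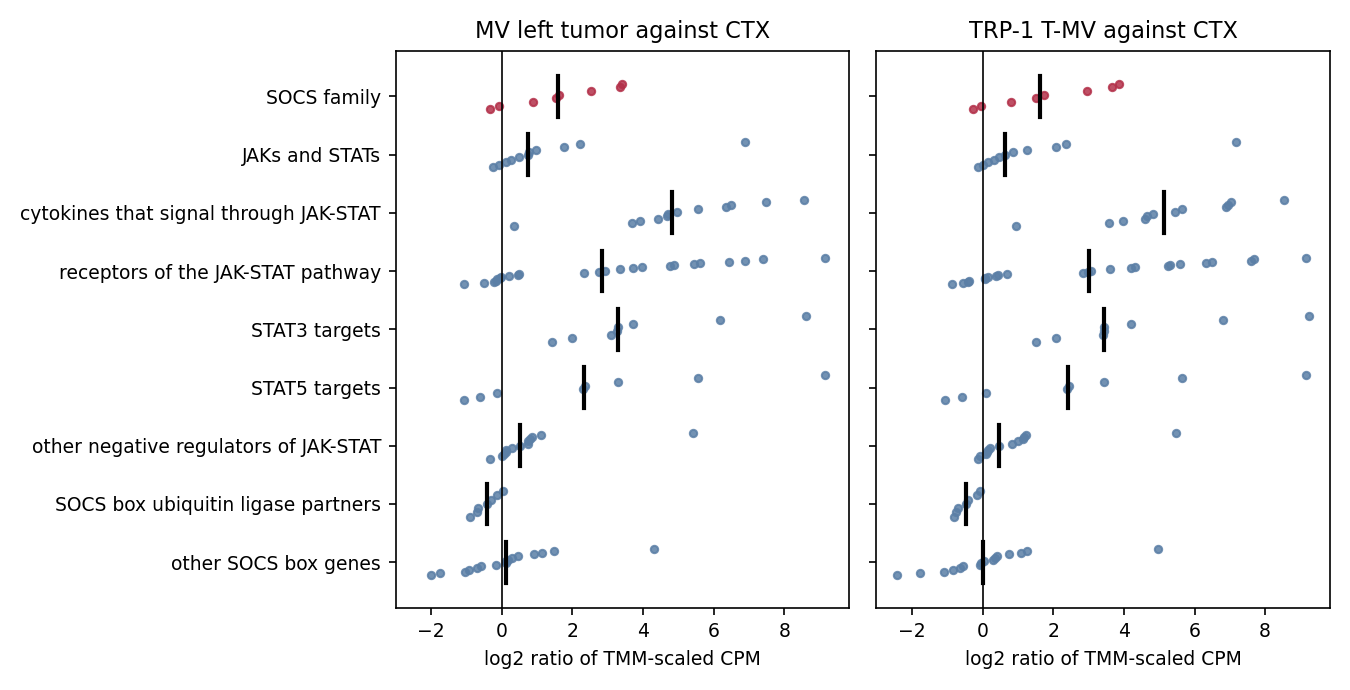
Log2 ratios of TMM-scaled CPM against CTX for the family and 8 related gene lists in the MV left tumor and TRP-1 T-MV, with 1 point per gene past the minimum count and the list median as a black line. Points of Il12a and Il21 are bounds, and the family's median of 1.58 and 1.62 lies between those of the cytokines, at 4.83 and 5.14, and of the SOCS box partners, at −0.41 and −0.48.

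Markers of immune cells, like the called family members, were mostly higher in the virus-treated libraries than in CTX. Of all genes compared, 18.1% and 18.5% were called higher there. In bulk tumor, more cells of a type and more RNA of a gene per cell cannot be told apart. All 8 T cell markers were called higher in both virus-treated libraries against CTX, with summed levels of 2.71 CPM in CTX, 2.11 in the remote tumor, 202 in the MV left tumor and 203 in TRP-1 T-MV. Of 10 macrophage and monocyte markers 8 were called higher, with sums of 67.3, 82.4, 942 and 1387 CPM. All 5 B cell markers were higher, with sums of 0.834, 0.804, 53.1 and 55.8. All 4 measured neutrophil markers were higher, with sums of 0.834, 1.41, 157 and 251, of which Mmp8 gave most. The neutrophil markers Ly6g and Retnlg had at most 3 reads and 1 read in any library. The T cell and B cell markers and most measured neutrophil markers had at most 10 reads in CTX. They passed the minimum mean through the virus-treated libraries, so their calls were nearly fixed in advance. Dendritic cell markers summed to 9.96, 9.65, 154 and 218 CPM, of which Ccr7 gave 104 and 153 in the virus-treated libraries. The dendritic cell markers Xcr1, Clec9a, Cd209a and Siglech had at most 13 reads in any library. NK cell markers summed to 2.45, 2.51, 14.7 and 14.2, with the NK markers Ncr1 and Klrb1c at 4 reads or fewer in each library. In the remote tumor against CTX, the macrophage markers Adgre1 and Cd14 were called higher at 1.09 and 1.61, and the dendritic cell marker Itgax at 1.06, with no SOCS gene called. The share of all genes called higher in that comparison was 0.457%. The part of each cell type in the SOCS levels was not tested.

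Tumor and stromal markers went otherwise. All 7 melanocyte markers, which define the labelled melanoma, were present in every library and were called lower in both virus-treated libraries against CTX. Their sums were 24712 CPM in CTX and 25141 in the remote tumor against 5743 in the MV left tumor and 5379 in TRP-1 T-MV. Over all genes, 11.1% and 11.7% were called lower in the virus-treated libraries against CTX, and 18.1% and 18.5% higher. Fibroblast markers summed to 42.8, 43.1, 43.7 and 41.8 CPM, with none of 5 called. Endothelial markers summed to 7.35, 7.64, 18.0 and 18.7, with 2 of 4 called higher. Skeletal muscle markers summed to 11.1, 9.70, 13.0 and 11.5 CPM. Of 4 measured, Ttn was called higher at 1.85 and Myh1 lower at −1.16 in the MV left tumor, and Myh1 also lower in the remote tumor at −1.10, on 17 reads against 35. The keratinocyte and adipocyte markers stayed at or below 0.993 and 3.48 CPM in all 4 libraries.

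Genes with the pattern most like each member were ranked among 10586 others with at least 30 reads in every library, by the largest difference over the 3 log2 ratios against CTX. For Cish only 1 gene, Dock8, lay within 0.20, at 0.15, and the second nearest was Socs2 itself at 0.21, before Ms4a6d at 0.22. Socs2 was near to Clec7a at 0.18 and Birc3 at 0.19, with 3 genes within 0.20. Socs1 was nearest to Tyrobp at 0.05, Hk3 at 0.09 and H2-Ab1 at 0.12, with 8 genes within 0.20. Socs3 was nearest to Snhg15, Etv3 and Per1, at 0.01 to 0.05, with 80 genes within 0.20, and Socs7 to Susd6, Smarca2 and Arntl, at 0.02 to 0.04, with 119. Socs4 was nearest to Taf4b, Rasal2 and Zswim5, at 0.08 to 0.09, with 47 within 0.20. Socs5 and Socs6, with ratios nearest to 1 in the virus-treated libraries, had 877 and 946 genes within 0.20, the nearest being Cenpl, Ranbp17 and Timm44 for Socs5 and Rnf13, Mrps18c and Gar1 for Socs6. These distances rest on 4 libraries that share 1 reference and describe them only.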

How the data were processed

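RNA-seq counts of 4 libraries, 1 per group, were analysed, although the labels state n = 2. The authors deposited unnormalized counts for 25239 symbols per library, and the submitters' processing notes name HISAT2, featureCounts and mm10 without versions. How strand and multi-mapped reads were handled, and with which annotation, is not given in the sources used here.

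TMM factors (edgeR 4.0.16, R 4.3.3) were computed over the 4 libraries, and 13357 genes with a mean of at least 10 reads were compared in 5 pairs of libraries. Log2 ratios have 95% exact conditional binomial (Clopper-Pearson) intervals (scipy 1.17.1, numpy 2.4.6, pandas 2.3.3, Python 3.11.15, figures with matplotlib 3.10.9). A library at 0 reads was set to a floor of 3 counts, which makes the ratio a bound, and no ratio was given where both had 3 reads or fewer. A floor of 3 counts equals 0.151 to 0.222 CPM. The procedure was tested on simulated data. Positions and lengths came from GENCODE M21 and promoters from RefSeq, GRCm38.p6.

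All members were named, and from each pathway list the 2 highest and 2 lowest genes, with further STATs and some genes tied to a member. The latter (Il2, Ifnb1, Il4, Il6st and Ghr) were chosen after their values were seen. Some genes that this rule selects, and 1 list, are left out of the text. Members and lists were chosen with earlier results of these data known. Alternatives were scaling by housekeeping genes, upper quartiles, total counts or DESeq2 1.42.0 size factors, other minimum counts, stricter calls, thinning to the smallest total, and TMM without Rn45s, Lars2, Rpph1 and Rmrp, the last chosen after seeing the data.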

Additional observations from a re-analysis of the deposited data

How the results depend on the processing

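Under 10 alternatives, 97 of 100 counts of members called stayed within 1.5 times the main count. The other 3 came from asking for a ratio of at least 4, which left 3 members higher (Cish, Socs1 and Socs2) in place of 5 in the MV left tumor against CTX, 3 in place of 5 in TRP-1 T-MV against CTX and 3 in place of 6 in the MV left tumor against the remote tumor. No member's call was lost or turned in direction under another scaling or thinning. Socs4 was newly called against CTX with total counts, at a log2 ratio of 1.14 in the MV left tumor and 1.05 in TRP-1 T-MV, and on the housekeeping scale, at 1.79 and 1.67. Socs5 was newly called in the MV left tumor against the remote tumor on the housekeeping scale, at 1.02. That scale added 0.90 and 0.86 to the log2 ratios of the MV left tumor and TRP-1 T-MV to CTX, and total counts added 0.24 to both. The share of higher among all called genes in the MV left tumor against CTX went from 61.8% to 76.9% by total counts. On the housekeeping scale it was 95.9%, with 5716 genes higher and 246 lower in place of 2411 and 1488. Under TMM scaling, 6 of the 13 genes that set the housekeeping scale were called lower in that comparison, with a median log2 ratio of −0.83. On the housekeeping scale the counts were 5408 and 286 for TRP-1 T-MV against CTX, and 6031 and 231 for the MV left tumor against the remote tumor. Total counts gave 890, 931 and 902 lower in these 3 comparisons, in place of 1488, 1559 and 1567. A mean of at least 50 reads gave 1540, 1575 and 1604 higher, in place of 2411, 2476 and 2483. A ratio of at least 4 gave 1457, 1497 and 1424 higher with 226, 240 and 230 lower, and an interval excluding 2 gave 885, 961 and 965 lower. For the remote tumor against CTX, 61 genes higher and 33 lower became 31 and 9 at a mean of 50, 16 and 4 at a ratio of 4 and 7 and 0 with an interval excluding 2, and with no minimum 60 were lower. Between the virus-treated libraries, 75 and 29 became 10 and 3, 4 and 2, and 0 and 1, and with no minimum 127 and 67. The cause was not tested. No paired analysis was possible because there was only 1 library a group. Cish, Socs1 and Socs2 rest on 70 to 95 reads in CTX and the remote tumor, which sets the width of their intervals.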
